A study of Rattus norvegicus with 10 samples.

Results

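The 10 genes described here form 3 connected systems of growing blood vessels. They are the angiopoietin ligands Angpt1 and Angpt2 with the receptor genes Tek and Tie1, the Notch ligands Dll4 and Jag1 with the receptor Notch1, and the tip cell genes Esm1 and Apln with the apelin receptor Aplnr. The genes were chosen by name, with earlier results of these data known. Each was read from the probe set that carries its symbol alone on the array, and each of the 10 had 1 such probe set among 14324 named genes and 27342 probe sets.

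Retinal RNA was taken from rats at postnatal day 3 and hybridised to 10 Affymetrix whole-transcript arrays, to compare a strain susceptible to oxygen-induced retinopathy (Sprague Dawley, SD) with a resistant one (Fischer 344, F344). RNA was extracted from the retinas of single rats, and that of 3 rats drawn from 2 litters was combined for every array. There were 4 groups: SD under cyclic hyperoxia (2 pools), SD in room air (3 pools), F344 under cyclic hyperoxia (3 pools) and F344 in room air (2 pools). Exposed litters entered the chamber within 12 hours of birth with their mothers and alternated between 80% and 21% oxygen every 24 hours, and no genetic change is labelled in any group. Pooling hides the spread between animals, so every test below measures the spread between pools. Crx, a transcription factor gene of photoreceptor precursors, lay between 10.7 and 11.2 on the log2 scale in all 10 pools, and the tight-junction gene Cldn5, a marker of endothelial cells, between 5.2 and 6.1. Kdr and Pecam1, which also mark endothelium, were not analysed here because no probe set carried either symbol alone.

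In the angiopoietin system, Angpt1 from cells around the vessel activates the receptor tyrosine kinase Tek (also called Tie2) and stabilises endothelium, while Angpt2, released by endothelial cells themselves, can oppose it and loosens vessels for sprouting. In a vessel sprout, the leading tip cell presents Dll4 to Notch1 on its neighbours and so holds them back from becoming tip cells, whereas Jag1 on the following stalk cells counters Dll4. The retina of the newborn rat is being vascularised from the optic nerve outward, and its dividing neural progenitors use Notch signalling too, so Notch transcripts in whole retina come from neural as well as vascular cells. Hyperoxia is known to halt this outgrowth through loss of Vegfa, and Angpt2, Esm1 and Apln are known to respond to Vegfa or to hypoxia.

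Promoter windows of 300 bases (250 before and 50 from the start site on) were found for 5 of the 10 genes in the RefSeq table of the build GRCr8. These were Tie1, Notch1, Jag1, Esm1 and Apln. Both strands were searched for ACGTG and GCGTG, the core letters bound by hypoxia-inducible factors, and for GTGGGAA, letters bound by the Notch partner Rbpj. The core letters stood in 3 of the 5 windows (Notch1, Jag1 and Esm1), and in 42.9% of 27455 promoters of that length. GTGGGAA stood in 1 of the 5, that of Tie1, and in 6.19% of all. Of these windows, 180 bases from position -250 to -71 are shown for Tie1, which had the lowest adjusted p of the 10 genes for the average of both strains, and for Esm1 and Jag1, whose matches to the core letters fall in this stretch. The matches of Notch1, at -46 and 7, lie outside it. Capitals mark the matches, which did not overlap each other. On the minus strand Tie1 lies at chr5:137305052-137305231 and Jag1 at chr3:144894954-144895133. Esm1 lies on the plus strand at chr2:46609003-46609182.
Tie1: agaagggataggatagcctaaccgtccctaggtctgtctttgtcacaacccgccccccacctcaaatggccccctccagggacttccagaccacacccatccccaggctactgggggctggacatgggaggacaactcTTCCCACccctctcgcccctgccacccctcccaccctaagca
Esm1: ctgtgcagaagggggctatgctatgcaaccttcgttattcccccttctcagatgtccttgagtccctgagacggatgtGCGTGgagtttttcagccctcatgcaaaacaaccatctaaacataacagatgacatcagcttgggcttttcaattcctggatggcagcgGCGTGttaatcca
Jag1: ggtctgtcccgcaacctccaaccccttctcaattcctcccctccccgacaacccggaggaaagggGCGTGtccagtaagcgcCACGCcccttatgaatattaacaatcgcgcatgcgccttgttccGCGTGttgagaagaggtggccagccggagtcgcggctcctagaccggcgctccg
The Tie1 window reads GTGGGAA on the opposite strand, starting at -112. In the Esm1 window GCGTG begins at -172 and at -83. Jag1 held 4 matches, the one at -47 lying outside the stretch shown. A match says only that these letters are present.

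None of the 10 genes passed the limma test of hyperoxia against room air in either strain, or of a strain difference, after adjustment over all probe sets. In SD 7 of the 10 lay lower and 3 higher under hyperoxia, against 46.5% and 49.3% of all probe sets, with a median of -0.11 on the log2 scale. In F344 7 lay lower, 2 higher and 1 level, against 48.9% lower and 46.4% higher of all probe sets, with a median of -0.23, while the median of all genes was 0 in both strains. The receptor genes Tie1 and Tek lay lowest relative to room air in SD (-0.42 and -0.33), and Tek, Tie1 and Dll4 in F344 (-0.42, -0.37 and -0.37), and Angpt1, Angpt2 and Apln lay within 0.12 of room air. Across all probe sets 0.0439% passed in SD and 0.00366% in F344. At an unadjusted p under 0.05 stood 1 of the 10 genes in SD (Tie1), against 5.95% of all probe sets, and 3 of the 10 in F344 (Tek, Tie1 and Dll4), against 4.83%. The intervals of the differences bound what could have been missed: over the 10 genes they ran from -0.75 to 0.55 in SD and from -0.79 to 0.36 in F344. Only Dll4, Notch1 and Jag1 were brighter than the median probe set. Tek was brighter than 23.5% of all probe sets, Esm1 than 32.7%, Tie1 than 34.8%, Angpt1 than 39.4% and Angpt2 than 43.7%. Signal over background was not analysed, which limits both the differences and the flat values of these dimmer genes.

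**Figure D1:**
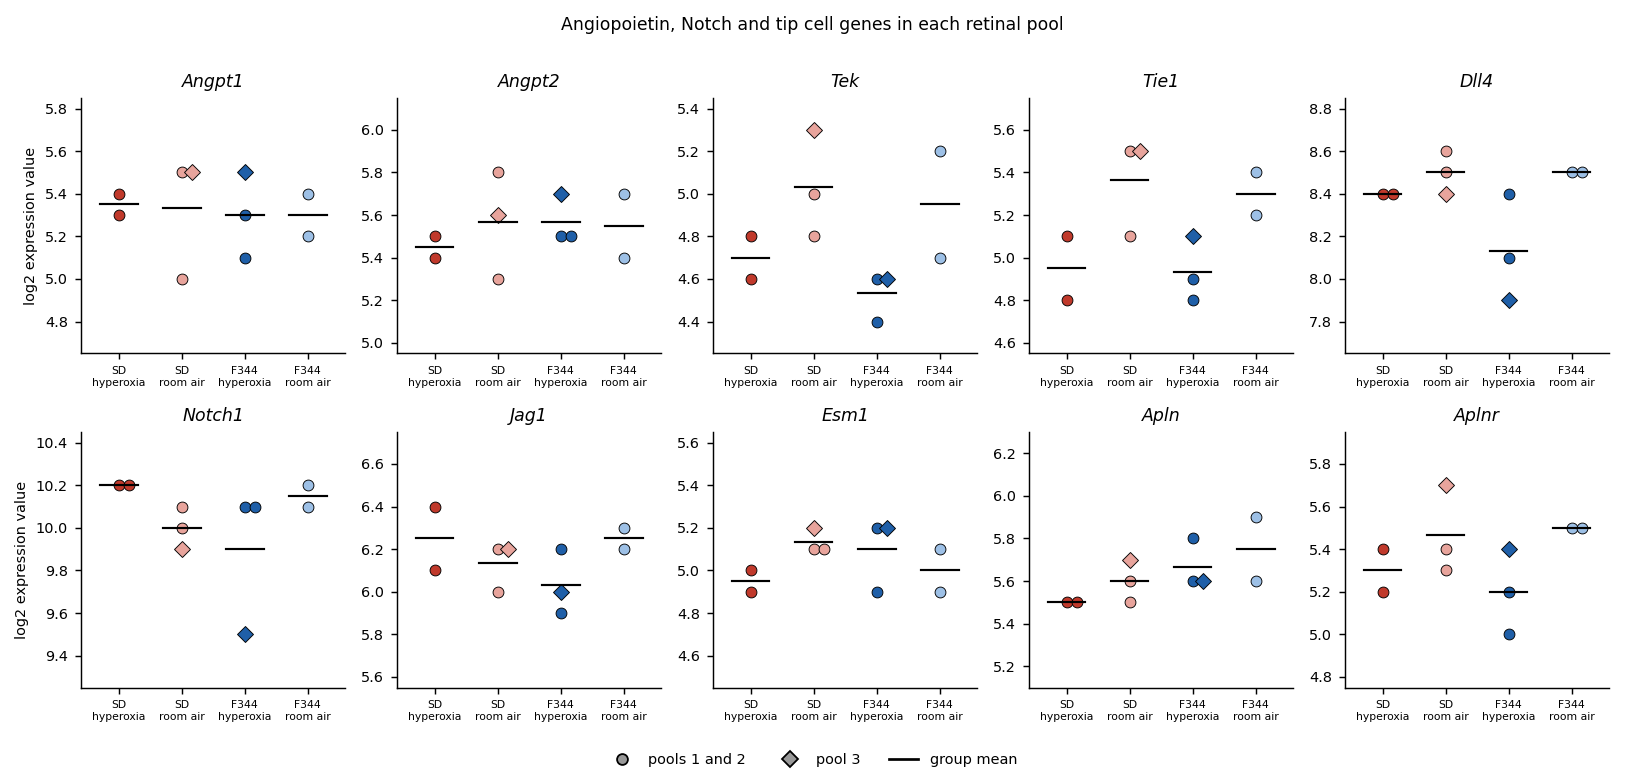
Log2 expression value (y axis, each panel spanning the same number of log2 units) of the 10 genes in each pool, by group (x axis). Circles are pools 1 and 2, diamonds pool 3, and bars group means. Tie1 and Tek sit lower in the hyperoxia groups of both strains, while Angpt1 and Angpt2 overlap in all groups.

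Tie1, the orphan receptor that pairs with Tek and modulates its signal, was at 5.1 and 4.8 in the SD hyperoxia pools, against 5.1, 5.5 and 5.5 in SD room air. The SD groups met only at 5.1. In F344 it was at 4.9, 4.8 and 5.1 under hyperoxia, against 5.2 and 5.4 in room air, without overlap. Group means were 4.95 ± 0.21 (SD hyperoxia), 5.37 ± 0.23 (SD room air), 4.93 ± 0.15 (F344 hyperoxia) and 5.30 ± 0.14 (F344 room air), with SD over 2, 3, 3 and 2 pools. From low to high, F344 hyperoxia and SD hyperoxia stood 0.017 apart and F344 room air and SD room air 0.067 apart, both less than the pooled SD of 0.191, while the step between the exposed and the room-air groups was 0.35. The difference under hyperoxia was -0.42 in SD (SE 0.153, 0.749-fold, adjusted p = 0.815 by limma) and -0.37 in F344 (SE 0.153, 0.776-fold, adjusted p = 0.921). Averaged over both strains it was -0.39 (SE 0.108, 95% interval -0.63 to -0.16, adjusted p = 0.77), and these 3 values kept their sign under the 18 alternatives of the closing section that hold Tie1. With 1 array left out the value in SD lay between -0.57 (without hyperoxia pool 1) and -0.27 (without hyperoxia pool 2).

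Tek, the receptor that Angpt1 activates, was at 4.8 and 4.6 in SD hyperoxia, against 4.8, 5.0 and 5.3 in SD room air. F344 pools read 4.4, 4.6 and 4.6 under hyperoxia, against 4.7 and 5.2 in room air. The F344 groups did not overlap, and the SD groups touched at 4.8. Tek differed by -0.33 in SD (SE 0.17, adjusted p = 0.815 by limma) and by -0.42 in F344 (SE 0.17, adjusted p = 0.921), and by -0.38 on average (SE 0.12, 95% interval -0.64 to -0.11, adjusted p = 0.988). The F344 value rested partly on room-air pool 2: it was -0.17 without that pool and -0.67 without room-air pool 1. Without SD room-air pool 3 the value in SD was -0.20.

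The ligand genes Angpt1 and Angpt2 lay closer to room air than Tek did, and a difference between ligands and receptor was not tested. Angpt1 was at 5.3 and 5.4 in SD hyperoxia, against 5.0, 5.5 and 5.5 in SD room air, and at 5.3, 5.1 and 5.5 in F344 hyperoxia, against 5.4 and 5.2 in F344 room air. Exposed and control pools overlapped in both strains. Its differences were 0.02 (95% interval -0.34 to 0.37) in SD and 0 (-0.36 to 0.36) in F344. Angpt2, the Vegfa-responsive antagonist, was at 5.4 and 5.5 in SD hyperoxia, against 5.3, 5.8 and 5.6 in SD room air. F344 pools stood at 5.5, 5.5 and 5.7 under hyperoxia, against 5.4 and 5.7 in room air. Angpt2 differed by -0.12 in SD (95% interval -0.44 to 0.21, adjusted p = 0.88 by limma) and by 0.02 in F344 (-0.31 to 0.34). The spread between SD room-air pools (SD 0.252, n = 3) exceeded both of these differences. Within an array, Angpt2 minus Angpt1 was 0.1 in both SD hyperoxia pools, against 0.3, 0.3 and 0.1 in SD room air, and 0.2, 0.4 and 0.2 in F344 hyperoxia, against 0 and 0.5 in F344 room air. The balance of the ligands therefore overlapped between exposed and control pools in both strains.

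**Figure D2:**
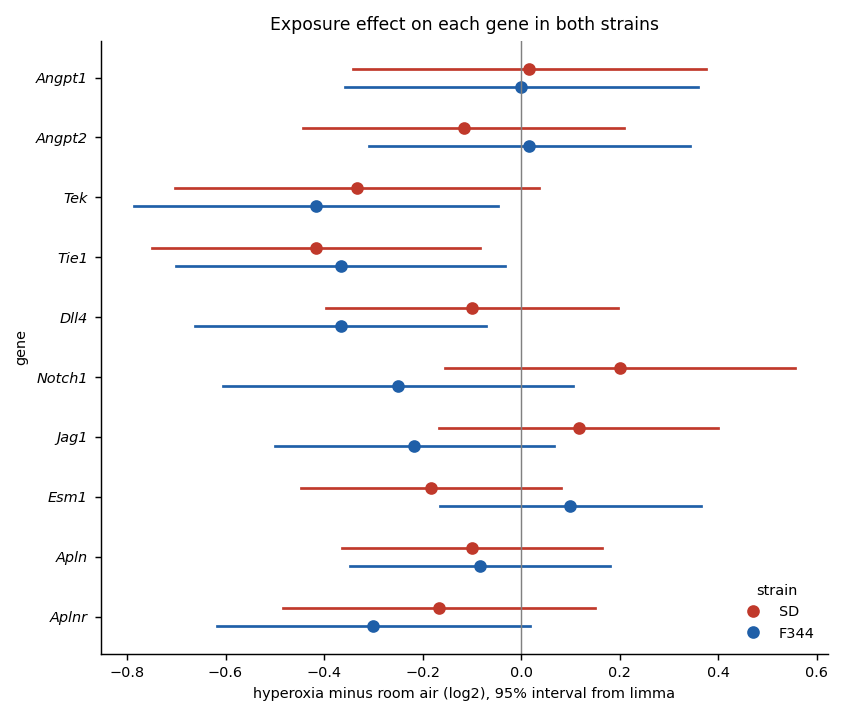
Hyperoxia minus room air (x axis, log2) for each gene (y axis) in SD (red) and F344 (blue), with 95% intervals from limma, not adjusted for the number of genes. The intervals of Tie1 lie below 0 in both strains and those of Tek and Dll4 in F344, and all others cross 0.

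Among the Notch genes, the ligand gene Dll4 lay lower in exposed F344, at 8.1, 8.4 and 7.9, against 8.5 in both room-air pools. In SD it was at 8.4 in both exposed pools, against 8.5, 8.6 and 8.4 in room air. The F344 groups did not overlap and the SD groups shared 8.4. Dll4 differed by -0.37 in F344 (SE 0.136, 95% interval -0.66 to -0.07, adjusted p = 0.921 by limma) and by -0.10 in SD (SE 0.136, adjusted p = 0.886). Without F344 hyperoxia pool 3, the lowest pool, the F344 value was -0.25. Subtracting the F344 value of Dll4 from its SD value gave 0.27 (SE 0.193, adjusted p = 0.711), or 0.10 with a term for the arrays numbered 3, so a strain difference in the Dll4 response was not shown.

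Notch1, the receptor, was high in every pool. It was at 10.2 in both SD hyperoxia pools, against 10, 10.1 and 9.9 in SD room air, so the exposed SD pools lay above the control pools without overlap. F344 read 10.1, 10.1 and 9.5 under hyperoxia, against 10.1 and 10.2 in room air, and its low mean came from pool 3. Notch1 differed by 0.20 in SD (SE 0.163, adjusted p = 0.831 by limma) and by -0.25 in F344 (SE 0.163, adjusted p = 0.921), and the F344 value was -0.05 without hyperoxia pool 3. Jag1, the stalk cell ligand, was at 6.4 and 6.1 in SD hyperoxia, against 6.0, 6.2 and 6.2 in SD room air. In F344 it was at 5.9, 6.2 and 6.0 under hyperoxia, against 6.2 and 6.3 in room air, and in both strains the groups overlapped. It differed by 0.12 in SD (SE 0.13), or -0.03 without SD hyperoxia pool 1, and by -0.22 in F344 (SE 0.13). The strain differences of the exposure effect were 0.45 for Notch1 (SE 0.231, adjusted p = 0.662) and 0.33 for Jag1 (SE 0.184, adjusted p = 0.662). For Notch1 it was 0.20 with a term for the arrays numbered 3.

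Of the tip cell genes, Esm1, which encodes a secreted proteoglycan of sprouting endothelium, lay lower in exposed SD, at 4.9 and 5.0, against 5.1, 5.1 and 5.2 in room air, without overlap. In F344 it was at 5.2, 4.9 and 5.2 under hyperoxia, against 4.9 and 5.1 in room air, with overlap. Differences were -0.18 in SD (SE 0.122, 95% interval -0.45 to 0.08, adjusted p = 0.815 by limma) and 0.10 in F344 (SE 0.122, adjusted p = 0.937). These steps are 1 or 2 units of the 0.1 to which the deposited values are rounded.

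Apln, the apelin peptide of tip cells, was at 5.5 in both SD hyperoxia pools, against 5.6, 5.5 and 5.7 in SD room air, and at 5.6, 5.8 and 5.6 in F344 hyperoxia, against 5.6 and 5.9 in F344 room air. It differed by -0.10 in SD and by -0.08 in F344 (SE 0.122 each, intervals -0.36 to 0.16 and -0.35 to 0.18). Exposed and control pools overlapped in both strains. Its receptor gene Aplnr, carried by veins and stalk cells, was at 5.4 and 5.2 in SD hyperoxia, against 5.4, 5.3 and 5.7 in SD room air. In F344 it was at 5.2, 5.0 and 5.4 under hyperoxia, against 5.5 in both room-air pools, without overlap. Aplnr differed by -0.17 in SD (SE 0.146, adjusted p = 0.834 by limma), or -0.05 without SD room-air pool 3, and by -0.30 in F344 (SE 0.146, 95% interval -0.62 to 0.02, adjusted p = 0.921).

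In all, 4 of the 10 genes were below room air without overlap in F344 (Tek, Tie1, Dll4 and Aplnr) and 0 above, against 6.32% and 5.97% of all probe sets (12.3% in either direction). In SD it was 1 below (Esm1) and 1 above (Notch1), against 8.06% and 7.2% (15.3% in either direction). None of the 10 lay below without overlap in both strains, against 0.479% of all probe sets. Both strains pointed downward for 5 of the 10 genes (Tek, Tie1, Dll4, Apln and Aplnr), and so did 18.7% of all probe sets. Averaged over the strains, 4 of the 10 genes (Tek, Tie1, Dll4 and Aplnr) had an unadjusted p under 0.05, against 4.08% of all probe sets, and 0 of the 10 passed by limma, against 0.0402%. The lowest adjusted p among the 10 was 0.77, for Tie1. The 10 genes were chosen with earlier results of these data known, so these counts are no test against the shares of all probe sets.

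No strain difference was shown in these genes, which does not show that the strains are alike. Over the genes, the intervals from limma ran from -0.50 to 0.45 in room air and from -0.44 to 0.65 under hyperoxia. Some of them thus include strain differences as large as the exposure difference of Tie1 in SD (-0.42). In room air, SD minus F344 lay between -0.15 and 0.13 for all 10 genes, with a median of 0.01, and 0 had an unadjusted p under 0.05 by limma, against 11.4% of probe sets, while 0.556% of all passed after adjustment. Pools of the strains overlapped in room air for all 10 genes, whereas 19.7% of all probe sets did not overlap (9.94% higher and 9.81% lower in SD). Under hyperoxia the strain difference was largest for Notch1 at 0.30 (SE 0.163, adjusted p = 0.815 by limma) and Dll4 at 0.27 (SE 0.136, adjusted p = 0.793). Without both arrays numbered 3 these were 0.10 for Notch1 and 0.15 for Dll4, and with a term for those arrays Tek (0.25) and Jag1 (0.23) stood above Notch1 (0.18). Again 0 of the 10 had an unadjusted p under 0.05, against 6.64% of all probe sets, and 0.457% of all passed after adjustment. Notch1 at 10.2 in both SD pools lay above the F344 pools, and Apln at 5.5 in both SD pools lay below F344 pools at 5.6 and 5.8. These were the 2 of the 10 genes without overlap, 1 higher and 1 lower in SD, against 7.59% higher and 7.12% lower of all probe sets (14.7% in either direction). For the difference of exposure effects 0 of the 10 genes and 0% of all probe sets passed, and at an unadjusted p under 0.05 were 0 of the 10 and 7.51% of all. Of 30 steps between neighbouring group means, 3 exceeded the pooled SD of their gene, 1 each in Tie1, Tek and Dll4. In Tie1 (0.35) and Tek (0.25) that step lay between the exposed and the room-air groups. In Dll4 (0.27) it lay between F344 hyperoxia and SD hyperoxia.

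Other genes of these systems were read from lists chosen by their known roles, also with earlier results of these data known. The angiopoietin list held 11 measured genes, among them the angiopoietin-like genes Angptl1, Angptl2, Angptl4 and Angptl6, so its median does not stand for the receptor pathway alone. Of these 11 genes, 0 passed by limma in SD and 0 in F344. The unadjusted p was under 0.05 for 1 and 0 genes, and the medians were -0.03 and -0.17. Angptl4, an angiopoietin-like inhibitor of lipoprotein lipase, lay at -0.17 in SD and -0.25 in F344 (SE 0.116 each). Dok2, an adaptor that binds activated Tek, lay at 0.25 in SD and at -0.17 in F344 (SE 0.103 each). Grb14, of the same list, lay above room air in both strains, at 0.18 in SD and 0.13 in F344 (SE 0.0988 each). Angptl2 lay below, at -0.10 in SD and -0.22 in F344 (SE 0.116 each).

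Of 28 measured Notch pathway genes, 0 passed in either strain by limma (the unadjusted p was under 0.05 for 2 in SD and 3 in F344), and the medians were -0.02 in both. Dlk1, a Notch ligand-like protein without the domain that activates the receptor, was at 5.5 and 5.8 in SD hyperoxia, against 6.2, 5.9 and 6.5 in SD room air, and at 5.8, 5.6 and 5.7 in F344 hyperoxia, against 6.0 and 6.2 in F344 room air. Neither strain's groups overlapped, and the differences were -0.55 in SD (SE 0.163, adjusted p = 0.815 by limma) and -0.40 in F344 (SE 0.163, adjusted p = 0.921). Dlk1 too was named for its large difference, and 0.479% of all probe sets lay lower without overlap in both strains. Notch3, the receptor of pericytes and smooth muscle, was at 6.6 and 6.4 in SD hyperoxia, against 6.9, 6.9 and 6.6 in SD room air. In F344 it was at 6.5, 6.7 and 6.1 under hyperoxia, against 7.0 in both room-air pools, a difference of -0.57 (SE 0.164, adjusted p = 0.921 by limma), with -0.30 in SD. The Notch target genes of this list were singled out after their values were seen. In SD Hey1 lay at 0.07, Hes5 at 0.02, Hey2 and Heyl at -0.13, Hes1 at -0.20 and Nrarp at -0.25. In F344 Hey1 lay at 0.18, Hes1 at 0.13, Hes5 at 0.12, Nrarp at 0.07 and Hey2 and Heyl at -0.02.

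Of 23 other tip cell genes, 19 lay below 0 in SD and 17 in F344, with a median of -0.13 in both. None passed by limma, and 5 and 4 had an unadjusted p under 0.05. Cd34, a sialomucin of sprouting endothelium, was at 4.8 and 4.7 in SD hyperoxia, against 5.2, 5.6 and 5.9 in SD room air, and at 5.0, 5.0 and 5.1 in F344 hyperoxia, against 5.3 and 5.6 in F344 room air. Its pools separated by exposure in both strains, with -0.82 in SD (SE 0.171, adjusted p = 0.304 by limma) and -0.42 in F344 (SE 0.171, adjusted p = 0.921). Of all probe sets 0.479% lay lower without overlap in both strains. Cd34 was named for its large difference, so it cannot be set against that share. The vasodilator gene Adm lay at -0.55 in SD (SE 0.127) and at 0.23 in F344 (SE 0.127). Col4a1, a basement membrane collagen, lay at -0.13 in SD and -0.42 in F344 (SE 0.144 each).

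For comparison, 39 measured targets of hypoxia-inducible factor had a median of -0.52 in SD, with 6 passing as lower by limma, and a median of -0.20 in F344, with 0 passing by limma and an unadjusted p under 0.05 for 16. Pdk1, which blocks pyruvate entry into mitochondria, differed by -1.25 in SD (SE 0.137, adjusted p = 0.00798). The largest difference among the 10 vessel genes, -0.42, was smaller than the median of that list in SD and larger than its median in F344.

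**Figure D3:**
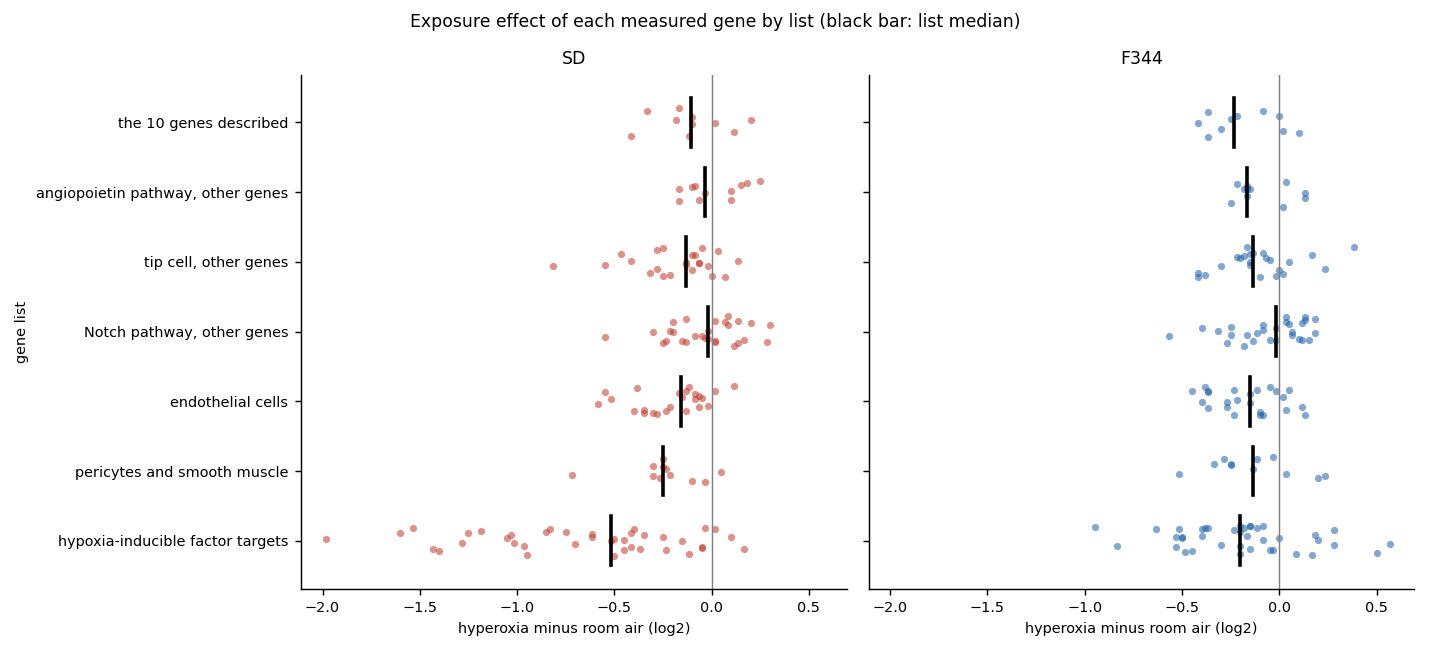
Hyperoxia minus room air (x axis, log2) of each measured gene by list (y axis), in SD on the left and F344 on the right, with black bars for list medians. The 10 genes described had medians of -0.11 in SD and -0.23 in F344. In SD their median lies close to the tip cell (-0.13) and endothelial (-0.16) lists, and hypoxia-inducible factor targets reach further down. In F344 it lies closest to the hypoxia-inducible factor targets (-0.20).

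The mean of the endothelial markers was lower under hyperoxia in both strains, as were the means of Tie1, Tek and Aplnr. In SD, however, exposed and control pools overlapped for Tie1, Tek and Aplnr. Of 24 measured endothelial genes outside the 10, 22 lay below 0 in SD (median -0.16) and 19 in F344 (median -0.15), with 0 passing by limma in either strain and an unadjusted p under 0.05 for 8 and 6 of them. Their mean level was 5.18 to 5.25 in SD hyperoxia pools, against 5.33 to 5.55 in SD room air, and 5.20 to 5.30 in F344 hyperoxia pools, against 5.38 to 5.46 in F344 room air. Exposed and control pools did not overlap. Cldn5 had the largest difference of this list in SD, at -0.58 (SE 0.134, adjusted p = 0.441 by limma). In F344 it lay at -0.37 (SE 0.134, adjusted p = 0.921 by limma). Pericyte and smooth muscle genes (11 measured) averaged 5.01 to 5.07 in SD hyperoxia, against 5.12 to 5.49 in SD room air, and 5.04 to 5.19 in F344 hyperoxia, against 5.24 to 5.25 in F344 room air. In these whole-retina pools, fewer endothelial cells and less RNA per cell cannot be told apart.

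Relative to the endothelial list mean of its own array, Tie1 stood at -0.15 and -0.38 in SD hyperoxia, against -0.23, 0.10 and -0.05 in SD room air, with overlap. In F344 it stood at -0.35, -0.40 and -0.20 under hyperoxia, against -0.18 and -0.06 in room air, without overlap. Tek, on the same scale, averaged -0.51 ± 0.09 in SD hyperoxia and -0.39 ± 0.14 in SD room air, and -0.72 ± 0.13 in F344 hyperoxia and -0.47 ± 0.29 in F344 room air (SD over 2, 3, 3 and 2 pools). The differences in Tek between exposure groups were thus within the larger SD of each pair, which in F344 was that of 2 room-air pools. By the same measure those in Tie1 exceeded it. Tie1 averaged -0.26 ± 0.16 in SD hyperoxia and -0.06 ± 0.17 in SD room air. In F344 it averaged -0.32 ± 0.11 under hyperoxia and -0.12 ± 0.08 in room air. Other genes also differed by more than the larger SD of the pair, but upward. In SD, Jag1 averaged 1.04 ± 0.16 under hyperoxia and 0.71 ± 0.08 in room air. Notch1 there averaged 4.99 ± 0.05 and 4.575 ± 0.19. In F344, Esm1 averaged -0.15 ± 0.13 under hyperoxia and -0.42 ± 0.08 in room air. Of the genes described, only Tie1 was lower by more than that measure. Aplnr stayed within it, at 0.09 and 0.04 in SD and -0.05 and 0.08 in F344. These relative differences were not tested.

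**Figure D4:**
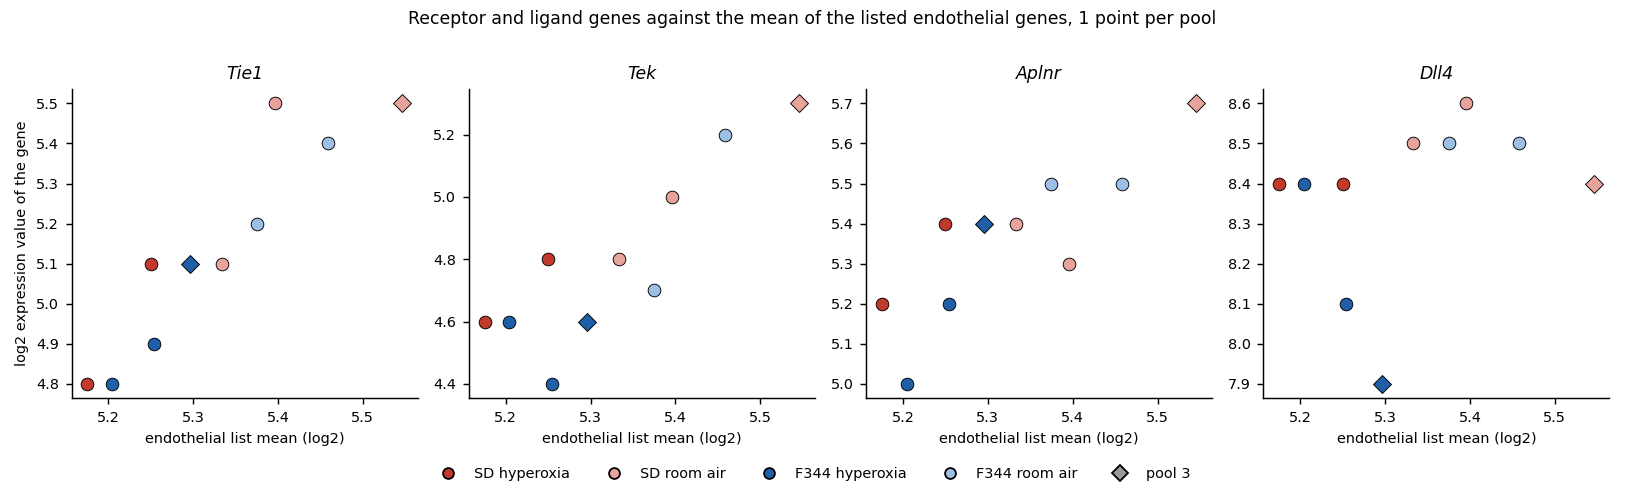
Log2 expression value of Tie1, Tek, Aplnr and Dll4 (y axes) against the mean of 24 endothelial genes (x axis, log2), 1 point per pool; colours are the groups and diamonds pool 3. Tie1, Tek and Aplnr are higher where the endothelial mean is higher, and the hyperoxia pools of both strains lie at its low end.

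Over the 10 arrays, Tie1 followed the endothelial mean with Pearson 0.924 and Spearman 0.938, and with Pearson 0.807 after group means were removed. The Pearson value was 0.867 for Tek, 0.835 for Aplnr, 0.317 for Dll4 and 0.272 for Angpt1. Without the arrays numbered 3 it was 0.79 for Tek, 0.75 for Aplnr, 0.56 for Dll4 and 0.07 for Angpt1. After group means were removed it was 0.81 for both Tek and Aplnr, -0.54 for Dll4 and 0.54 for Angpt1. Tie1 and Tek correlated at 0.868 (0.705 after group means were removed, and 0.85 without the arrays numbered 3). Dll4 and Notch1 correlated at 0.701, but at -0.07 without the arrays numbered 3. These values are descriptions over 10 arrays that share exposure, strain and any array-wide shift. Among 11260 genes as bright as the dimmest of the 10, those most like Dll4 over the arrays by Pearson were Csnk1d (0.949), Atp7b (0.938) and Gpr37 (0.938). Their Spearman values were 0.911, 0.683 and 0.80. For Angpt2 the most alike by Pearson were Tssk3 (0.896), Plcd1 (0.872) and Mier2 (0.864), for Esm1 Bcas1 (0.915), Pspc1 (0.906) and Acbd6 (0.896), and for Apln Rnf152 (0.934), Chrm2 (0.919) and Setbp1 (0.917). As the 3 highest of a search over 10 arrays, these values are high by selection and were not tested.

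The arrays numbered 3 (exposed F344 and room-air SD) stood apart from the other 8 on the first principal component of all probe sets (34.1% of the variance). The design text says that 1 array of each of these groups was added because of how the first 8 arrays lay on principal components, and the numbering was taken to mark them. With a term for these arrays, 14.8% of all probe sets differed from the other arrays of their groups (7.22% higher and 7.62% lower), and among the 10 genes Notch1 was lower by limma (-0.38, SE 0.106, adjusted p = 0.0317) and Aplnr higher (0.33, SE 0.0971, adjusted p = 0.0397). Retinal progenitor and Mueller glia genes had a median of -0.15 and endothelial genes of 0.10 on that term. One array is an exposed pool and the other a control pool, so the term enters the effects of F344 and SD with opposite signs. Without both arrays, Tie1 differed by -0.35 in SD and -0.45 in F344, Tek by -0.20 and -0.45, Dll4 by -0.15 and -0.25, Aplnr by -0.05 and -0.40, and Notch1 by 0.15 and -0.05.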

How the data were processed

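Retinal RNA of 10 pools was measured on Affymetrix gene arrays. The authors' deposited values are on a log2 scale, 1 per probe set and array, rounded to 0.1, with array medians between 5.9 and 6. Per the submitters' processing notes, RMA and Partek 6.4 were used, in roles that the notes do not state. How background was corrected and arrays were scaled is not given in the sources used here. The number of arrays limits the precision. Of 27342 probe sets 15097 had 1 gene symbol in the platform annotation, and the brightest stood for a gene with several. Groups came from the sample titles. Limma 3.58.1 in R 4.3.3 fitted a mean per group to all 10 arrays (6 residual degrees of freedom), with eBayes, two-sided, and Benjamini-Hochberg adjustment over all probe sets at 0.05, for 6 comparisons. The fit was tested on simulated data.

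The genes and lists were chosen with earlier results of these data known. All 10 genes are named; from each other list, passing genes (at most 4) or the 2 with the largest difference per strain could be named, and for Angpt2, Esm1, Apln and Dll4 the 3 most correlated genes.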

Additional observations from a re-analysis of the deposited data

Results flagged for a closer look

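Of 45 genes searched (the 10 genes and those the naming rule took from the pathway and cell type lists), 3 had exposed pools above control pools in one strain and below them in the other, without overlap, as did 1.14% of all probe sets. The rule took the list genes that passed or differed most, so their count cannot be set against that share. The difference of the effects was tested by limma and passed for none of the 3. Dok2, the Tek adaptor, was at 5.2 and 5.3 in SD hyperoxia, against 5.0 in all SD room-air pools, and at 5.2, 5.2 and 5.0 in F344 hyperoxia, against 5.3 in both F344 room-air pools (SD minus F344 effect 0.42, SE 0.146, adjusted p = 0.651). Adm, a vasodilator gene of tip cells, was at 4.6 and 4.7 in SD hyperoxia, against 5.2, 5.0 and 5.4 in SD room air, and at 5.0, 5.1 and 5.0 in F344 hyperoxia, against 4.7 and 4.9 in F344 room air (-0.78, SE 0.18, adjusted p = 0.651). C1qc, a complement gene of microglia, was at 5.9 in both SD hyperoxia pools, against 6.3, 6.2 and 6.6 in SD room air, and at 5.9, 5.9 and 6.0 in F344 hyperoxia, against 5.7 in both F344 room-air pools (-0.70, SE 0.173, adjusted p = 0.651).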

How the results depend on the processing

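Of the 19 alternatives, 18 hold all 10 genes and 1 holds 3 of them, and 0 of the genes run passed by limma in any of the 6 comparisons under any of these, and the lowest adjusted p was 0.217 (Tie1, average of both strains, with the term for the arrays numbered 3). Of 1098 single-gene values under these alternatives, 1071 moved by less than 1 pooled SD and 68 changed sign, 22 of them in the difference of exposure effects. The median over the 10 genes for that difference, 0.05, was 0.15 with the term for the arrays numbered 3, 0.15 without both of them, 0.15 with the replicate number as a block and 0.17 with array weights, and ran from -0.025 to 0.158 with each array left out in turn. The other medians with 1 array left out ran from -0.175 to -0.075 in SD, -0.283 to -0.15 in F344, -0.146 to -0.033 on average, -0.083 to 0.075 between the strains in room air and -0.025 to 0.183 between them in hyperoxia. Only 3 of the 10 genes (Dll4, Notch1 and Jag1) are brighter than the median probe set, and their medians were 0.12 in SD, 0.33 for the difference of effects, -0.12 between the strains in room air and 0.27 between them in hyperoxia; the fewer genes set these values. Of the other shifts the cause was not tested. Same-numbered exposed and control pools had deviations correlated at -0.056 and -0.0225 in SD and -0.0161 and 0.108 in F344, so the numbers were not taken as pairs, and the replicate block changed no call. Signal over background was not analysed, which limits the dimmer probe sets.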

Other observations

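Lists of other retinal cell classes gave the following values for hyperoxia minus room air. Retinal progenitor and Mueller glia genes (12 measured) had medians of 0.05 in SD and 0.07 in F344, with 0 passing by limma and 0 at an unadjusted p under 0.05 in either strain. Astrocyte genes (8 measured), the class that lays the template for retinal vessels, had medians of -0.09 in SD and -0.02 in F344, with 0 passing by limma and 0 and 1 at an unadjusted p under 0.05. Pdgfra, a marker of astrocyte precursors, lay at -0.23 in SD and -0.53 in F344 (SE 0.122 each, adjusted p = 0.815 and 0.921 by limma). Gja1, a gap junction gene of astrocytes, lay at 0.17 in SD and 0.52 in F344 (SE 0.267 each), and S100b, a calcium-binding protein gene of glia, at -0.25 in SD and 0.18 in F344 (SE 0.128 each). Microglial genes (9 measured) had medians of -0.17 in SD and 0.07 in F344, and erythroid genes (7 measured) of -0.05 and -0.02, with 0 passing by limma in either strain and 2 microglial genes in SD at an unadjusted p under 0.05. Retinal neuron genes (14 measured) had medians of -0.025 in SD and 0.08 in F344. By limma 0 passed, and 2 in each strain had an unadjusted p under 0.05. Sag lay at -0.07 in SD and 0.85 in F344 (SE 0.23 each), and Sncg at -0.58 and 0.30 (SE 0.173 each). Rcvrn lay at -0.37 and 0.28 (SE 0.292 each), and Crx at -0.02 and 0.32 (SE 0.145 each).

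Rgs5, a pericyte gene, lay at -0.72 in SD and -0.52 in F344 (SE 0.249 each), and Abcc9, a potassium channel subunit gene of pericytes, at -0.30 and -0.25 (SE 0.094 each), with adjusted p of 0.815 in SD and 0.921 in F344 by limma. On average over both strains Abcc9 lay at -0.28 (SE 0.0665, adjusted p = 0.522), further below 0 than Dll4 or Aplnr and less far than Tie1.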
